A study of Drosophila melanogaster with 14 samples.

Results

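Slit, its Robo receptors, the sorting factor Commissureless, the Netrins and their receptors Frazzled and Unc-5 guide axons at the midline of the Drosophila nerve cord. Their 9 genes (sli, robo1, robo2, robo3, comm, NetA, NetB, fra and unc-5) were taken by FlyBase identifier from the 17558 gene identifiers of an RNA-seq series on the zinc finger transcription factor gene lola. The genes were listed by their known roles, with earlier results of these data known. All 9 passed the filter on low counts in each comparison, with between 34 and 3130 reads per gene and library.

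Slit is secreted by midline glia and repels growth cones that carry Robo receptors, so that axons which have crossed do not cross again. Commissureless diverts newly made Robo protein to endosomes before it reaches the growth cone, and so lets commissural axons cross. Netrins, also made at the midline, attract axons through Frazzled, while Unc-5 turns the Netrin response into repulsion.

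RNA was taken from pools of whole animals in 3 sets, each with its own controls, and every group carried the deficiency Df(2R)ED2076 over its other second chromosome. The lola-F set held 3 libraries of lola-F stop / Df(2R)ED2076 embryos and 3 of wild type / Df(2R)ED2076 embryos, from 100 embryos each, and the lola-O set held 2 libraries each of lola-O / Df(2R)ED2076 and wild type / Df(2R)ED2076 adults, from 10 flies each within 10 h of eclosion. The lola-null set held 2 libraries each of lola E76 / Df(2R)ED2076 and wild type / Df(2R)ED2076 embryos, and the sources used here give no pool size for it. Both embryo sets are labelled as 15 h after fertilization, from a 2 h egg collection at 25 °C and 13 h of further development, and mutants were picked by hand for mCherry with controls taken in parallel. The genotypes remove function in the whole animal, so no cell type was targeted, and a whole-animal pool cannot tell fewer cells of a type from less RNA per cell.

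The libraries held from 3326811 to 22629694 gene counts. lola-F control 1 was the shallowest, and 66.7% of its reads stood outside the gene counts, most of them mapped to several places. lola itself lay at 180.3 ± 47.9 CPM in lola-F mutants against 298.1 ± 55.1 in their controls (SD, n = 3), with no overlap, at adjusted p = 0.0796 in edgeR's quasi-likelihood test. The library labelled lola-null mutant 1 held 1044 CPM of lola, within the range of its controls (1016 and 1414), and lola-null mutant 2 held 369.2. The lola-null controls also stood apart from the lola-F controls, although their labels give the same genotype and age.

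Across the 9 genes, NetB and robo3 were called in the lola-null mutants and robo2 in the lola-F mutants. Only the NetB call held under all alternatives, and the robo2 and robo3 calls were lost with a replicate block and with the length trend removed. These calls do not show a difference between the embryo sets. robo2 and robo3 lay below their controls in both, and no member passed the interaction test. NetB fell 5.08-fold and robo3 fell 2.48-fold in the lola-null mutants, and robo2 fell 1.87-fold in the lola-F mutants, each past an adjusted p of 0.05 in edgeR's quasi-likelihood test over all genes. No member was called higher in either embryo set, and none was called in the adults, where none had an unadjusted p under 0.05 and DESeq2 called none. These are 1 of 9 members called lower in the lola-F set, where 3.73% of 10191 genes were called lower and 3.33% higher (339 higher and 380 lower, or 943 and 439 with upper quartile scaling), and 2 of 9 in the lola-null set, where 9.49% of 9288 genes were called lower and 7.42% higher. In the adults 0.558% of 12906 genes were called in either direction. The levels are given per set as CPM, the counts of a gene relative to the scaled library size, and fold changes as log2 values with their standard error.

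**Figure D1:**
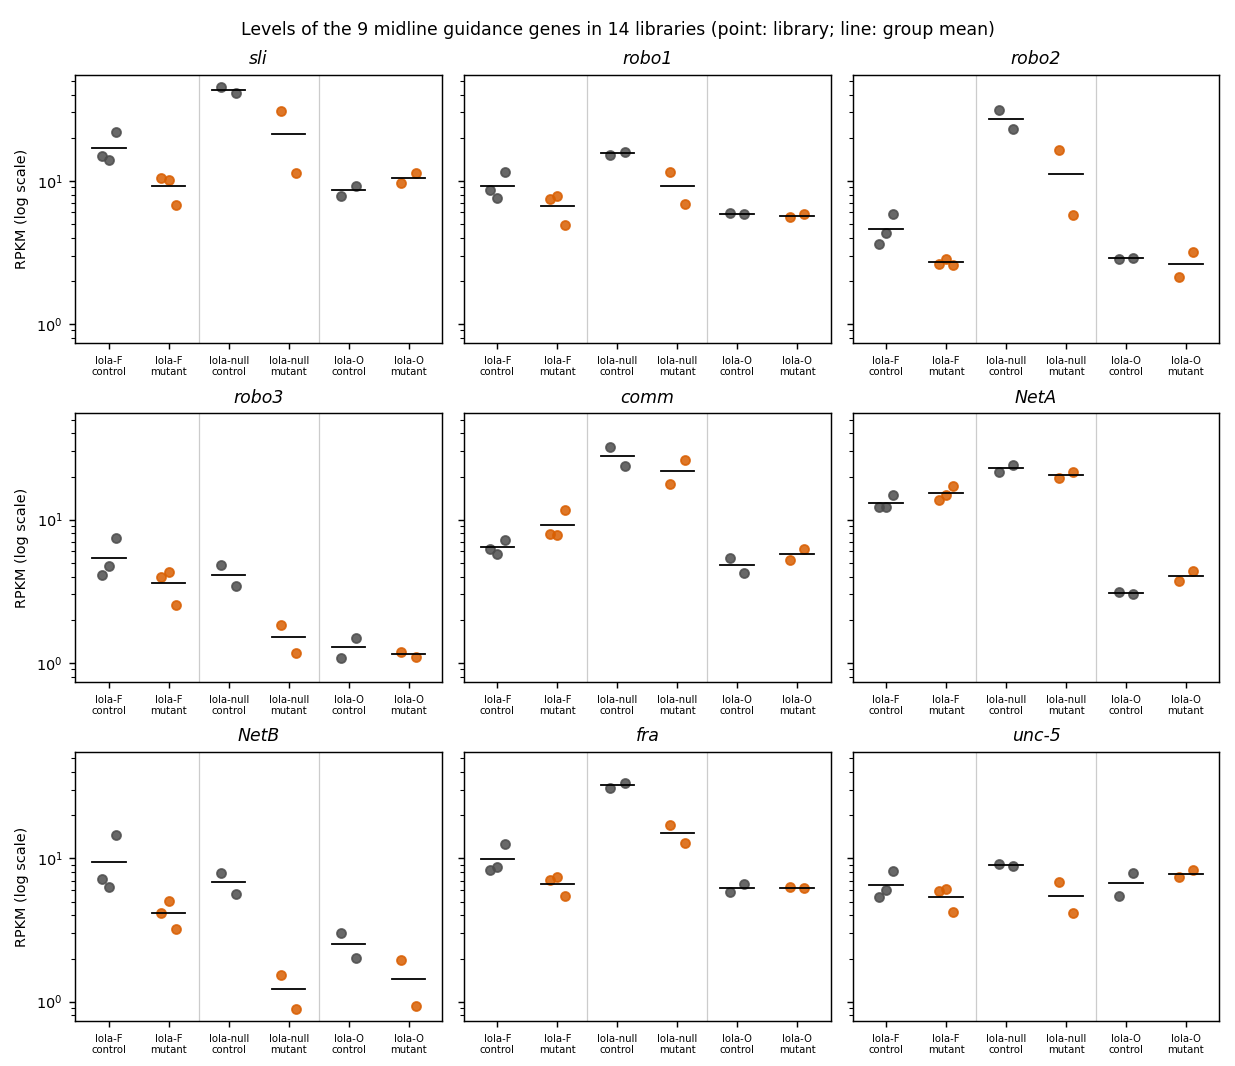
Level of each member in each of the 14 libraries, in RPKM on a log axis (CPM per kilobase of exon, all libraries scaled together), with grey points for controls, orange points for mutants and a line for the group mean. NetB and robo3 of the lola-null mutants lay below their controls, NetA levels lay close together within each set, and robo2, comm and fra stood higher in the lola-null controls than in the lola-F controls.

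Of the Netrin ligand genes, NetB fell in the lola-null mutants and NetA was not called in any set (edgeR, all libraries). The difference between the pair was not tested. NetA and NetB both encode secreted Netrins that are made by midline cells and act redundantly in commissure formation. They lie side by side on chromosome X of the BDGP6.54 annotation, on the minus strand, NetA at 14604012 to 14653928 and NetB at 14686038 to 14749376, 32109 bases apart. NetB has the longer transcripts, with 8168 exonic bases against 3343 in NetA.

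NetB held 70.0 and 50.7 CPM in the lola-null controls and 14.7 and 8.73 CPM in the mutants. Both mutant libraries lay far below both controls, and the log2 fold change was −2.34 ± 0.45 (SE; 95% interval −3.25 to −1.43; adjusted p = 0.000269, edgeR). The library with lola at control level shared the low NetB level. Without lola-null mutant 1 the log2 fold change was −2.89, and without lola-null mutant 2 it was −2.01, each with only 1 mutant library left. Among the 9288 genes tested in the lola-null set its fold change ranked 612 by size, counted in either direction.

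NetB in the lola-F controls was at 62.3, 49.9 and 113.9 CPM, and in the mutants at 31.6, 37.8 and 23.0 CPM. The groups did not overlap, and control 3 stood well above the other controls. The log2 fold change was −1.30 ± 0.33 with an adjusted p of 0.0546, just short of the threshold in edgeR, and without control 3 it was −0.86 (adjusted p = 0.0613). With upper quartile scaling it passed (−1.13, adjusted p = 0.0410), as it did in DESeq2 (−1.30, adjusted p = 0.00271).

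The adult levels of NetB were lower and its groups nearly met. The lola-O controls held 23.4 and 13.9 CPM and the mutants 13.9 and 6.50 CPM, with a log2 fold change of −0.85 ± 0.38 (95% interval −1.73 to 0.04; adjusted p = 0.331, edgeR). With replicate numbers as a block the value was −0.91 with an adjusted p of 0.0409, although these numbers are not known to pair the adult libraries.

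NetA gave no such difference in any set. In the lola-null set it held 78.3 and 88.6 CPM in controls and 76.7 and 86.8 CPM in mutants, a log2 fold change of −0.03 with an interval from −0.86 to 0.80, whose sign turned under upper quartile scaling (0.041). The lola-F controls held 42.9, 39.7 and 47.4 CPM and the mutants 42.4, 46.0 and 50.2 CPM, with overlap. That log2 fold change was 0.09 with an interval from −0.23 to 0.42 (adjusted p = 0.676). In adults NetA was at 9.98 and 8.59 CPM in controls and 10.8 and 12.6 CPM in mutants, which did not overlap, at 0.34 with an interval from −0.15 to 0.83 (adjusted p = 0.479).

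The make-up of the Netrin pool, counted per kilobase of exon, differed between mutants and controls in each set. NetA made up 73.2% and 81.0% of the summed Netrin RPKM in the lola-null controls and 92.7% and 96.0% in the mutants. In the lola-F set it made up 62.7%, 66.0% and 50.4% in controls and 76.6%, 74.8% and 84.2% in mutants. The adult controls had 51.0% and 60.1% and the adult mutants 65.6% and 82.6%. Every mutant library had a higher NetA share than every control of its own set, a description of libraries in which NetB was already seen to be low and so given without a test.

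**Figure D2:**
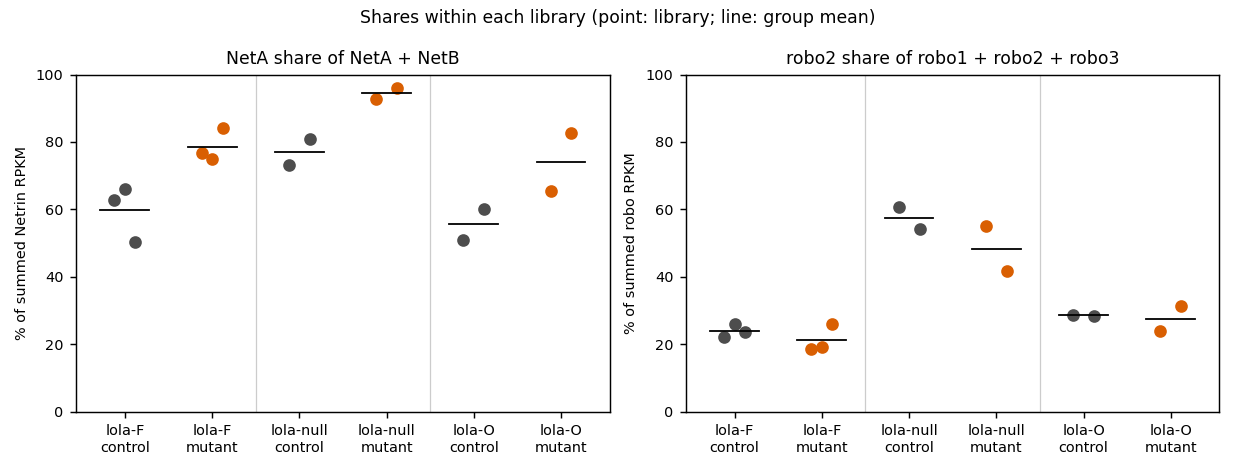
Left, the share of NetA in the summed RPKM of NetA and NetB, and right, the share of robo2 in the summed RPKM of the 3 robo genes, in percent, for each of the 14 libraries with the group mean as a line. The NetA share lay at 92.7% and 96.0% in lola-null mutants against 73.2% and 81.0% in their controls, and the robo2 share at 54.2% to 60.8% in lola-null controls against 22.2% to 25.9% in lola-F controls.

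sli encodes Slit, the midline repellent, and was the most abundant of the 9 genes per kilobase in the controls of all 3 sets. It lies on chromosome 2R at 15869495 to 15922118 on the minus strand, with 9618 exonic bases, the longest of the members. In the lola-F set it held 150.1, 129.3 and 201.0 CPM in controls and 93.0, 89.7 and 57.1 CPM in mutants. The groups did not overlap, and the log2 fold change of −1.004 ± 0.24 had an adjusted p of 0.0516, short of the threshold in edgeR. Upper quartile scaling (−0.85, adjusted p = 0.0384) and DESeq2 (−1.01, adjusted p = 0.00253) called it.

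In the lola-null set sli was at 472.8 and 427.7 CPM in controls, 347.2 CPM in mutant 1 and 130.9 CPM in mutant 2. Both mutants lay below the controls but far from each other, and the log2 fold change was −0.91 ± 0.50 (adjusted p = 0.239). Without lola-null mutant 1 it was −1.89, and without lola-null mutant 2 it was −0.36. Each of these fits holds only 1 mutant library, so the spread among mutants is not measured in it. Adult levels were 72.0 and 75.2 CPM in controls and 80.7 and 93.8 CPM in mutants, without overlap, at a log2 fold change of 0.25 with an interval from −0.17 to 0.66.

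The 3 Robo receptors share Slit as their ligand and differ in what they set. Robo1 is the main receptor that keeps axons from crossing again, while Robo2 and Robo3 also sort longitudinal axons into their lateral position. robo3 (1256417 to 1296596, plus strand) and robo2 (1380086 to 1420453, minus strand) are neighbours on chromosome 2L, 83489 bases apart, and robo1 lies on 2R at 22692524 to 22700970 on the minus strand.

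robo2 in the lola-F set was at 23.7, 26.0 and 34.4 CPM in controls and 15.0, 16.3 and 14.02 CPM in mutants. The mutants lay close together and below every control, with a log2 fold change of −0.90 ± 0.18 (adjusted p = 0.0377, edgeR). The call rested on few libraries: it was lost without mutant 1, mutant 2, control 1 or control 2 (adjusted p = 0.122, 0.0788, 0.120 and 0.0818), while the fold change stayed between −0.9997 and −0.72 over all leave-one-out fits. It was also lost with the replicate number as a block (adjusted p = 0.115).

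In the lola-null set robo2 held 209.0 and 154.6 CPM in controls, 119.3 in mutant 1 and 42.6 in mutant 2. The mutants were below both controls at a log2 fold change of −1.16 ± 0.47, which did not pass (adjusted p = 0.0954). Without lola-null mutant 1 it was −2.20, and without lola-null mutant 2 it was −0.59. Each of these fits holds only 1 mutant library, so the spread among mutants is not measured in it. In adults the levels were 16.7 and 15.3 CPM in controls and 11.5 and 16.8 CPM in mutants, with overlap (log2 fold change −0.18, interval −0.72 to 0.36). The exons of robo2 share 1241 bases with lncRNA:CR44898 on the same strand, which held 0 reads in each of the 14 libraries. They also share 1422 bases with asRNA:CR44897 on the other strand, which held from 0 to 16 reads per library. How these overlaps bear on the robo2 counts was not tested.

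robo3 was called in the lola-null set, where controls held 37.2 and 26.6 CPM and mutants 15.4 and 10.0 CPM. The groups did not overlap, with a log2 fold change of −1.31 ± 0.46 (adjusted p = 0.0447, edgeR). This call was lost under upper quartile scaling, in DESeq2 and with the replicate block (adjusted p = 0.0889, 0.0623 and 0.110). It was also lost without either control, where a single control library is left. In the lola-F set robo3 was at 30.8, 32.5 and 50.6 CPM in controls and 26.0, 28.3 and 15.6 CPM in mutants, below without overlap (−0.71 ± 0.28, adjusted p = 0.132). Adults held between 6.67 and 9.02 CPM in both groups (−0.21, interval −0.75 to 0.33).

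robo1 did not pass in any set. Its lola-F controls were at 61.3, 50.1 and 74.0 CPM and the mutants at 46.9, 48.5 and 28.9 CPM, without overlap but with mutant 2 close to control 2 (log2 fold change −0.58 ± 0.24, adjusted p = 0.149, edgeR). The lola-null controls held 111.8 and 117.4 CPM, mutant 1 91.8 and mutant 2 55.7 (−0.63 ± 0.42, adjusted p = 0.340). With lola-null mutant 2 as the only mutant library the log2 fold change was −1.15. Adult values lay between 33.2 and 38.5 CPM in all 4 libraries.

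comm encodes the transmembrane protein that keeps Robo off the growth cone, and it had the shortest exons of the members, 2495 bases on chromosome 3L (15721511 to 15728430, minus strand). Unlike the fold changes of sli and the robo genes, that of comm was positive in the lola-F set, where mutants were at 18.2, 17.9 and 25.5 CPM against 16.3, 13.8 and 17.1 CPM in controls. Each mutant library lay above each control, by 0.39 ± 0.19 on the log2 scale, and did not pass (interval −0.06 to 0.83, adjusted p = 0.211, edgeR). The lola-null controls held 87.2 and 64.9 CPM and the mutants 51.9 and 78.1 CPM, which overlapped (−0.23, interval −1.07 to 0.62). In adults comm was at 12.7 and 9.02 CPM in controls and 11.3 and 13.3 CPM in mutants, again with overlap (0.19, interval −0.36 to 0.74).

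Neither Netrin receptor gene passed in any set in edgeR with all libraries. fra, which encodes the attractive receptor Frazzled, lies on 2R at 12529053 to 12564184 on the plus strand. It was at 55.2, 53.3 and 75.5 CPM in lola-F controls and 41.6, 43.2 and 30.2 CPM in mutants, below without overlap (log2 fold change −0.68 ± 0.20, adjusted p = 0.0762, edgeR; 0.0298 in DESeq2). In the lola-null set fra held 211.4 and 233.7 CPM in controls and 127.0 and 97.8 CPM in mutants, also without overlap (−0.98 ± 0.44, adjusted p = 0.142). With lola-null mutant 2 as the only mutant library it was −1.29. The 4 adult libraries held 33.5 to 35.4 CPM (−0.04, interval −0.43 to 0.35).

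unc-5, which encodes the repulsive Netrin receptor, lies on 2R at 15340472 to 15368300 on the plus strand. Its lola-F controls held 29.4, 30.5 and 40.9 CPM and the mutants 28.6, 29.3 and 19.2 CPM. Mutants 1 and 2 lay just under the controls and mutant 3 further below (−0.40 ± 0.21, adjusted p = 0.244, edgeR). The lola-null controls held 52.0 and 50.4 CPM, mutant 1 41.8 and mutant 2 26.2 (−0.59 ± 0.41, adjusted p = 0.369). With lola-null mutant 2 as the only mutant library the log2 fold change was −1.07. Adult mutants held 33.9 and 37.3 CPM and controls 27.2 and 35.1 CPM, with overlap. The exons of unc-5 share 227 bases with Pms2 on the other strand, and the sources used here do not say whether counting used the strand.

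As a group, the members had mostly negative fold changes in embryos, 7 of 9 in the lola-F set and 9 of 9 in the lola-null set (8 of 9 under upper quartile scaling), and 5 of 9 in adults. All libraries of the mutants lay below all controls for 7 of 9 members in the lola-F set, as for 19.5% of all genes tested, and for 7 of 9 in the lola-null set, as for 26.7%. The median log2 fold change of the members was −0.68 in the lola-F set against 0.02 over all genes, and −0.91 in the lola-null set against 0.09. In adults the mutants lay below the controls for 2 members, NetB and fra, whose nearest mutant and control libraries were almost level, as for 23.4% of all genes, and above them for 2, sli and NetA, as for 25.3%. The adult median was −0.04 against 0.01.

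**Figure D3:**
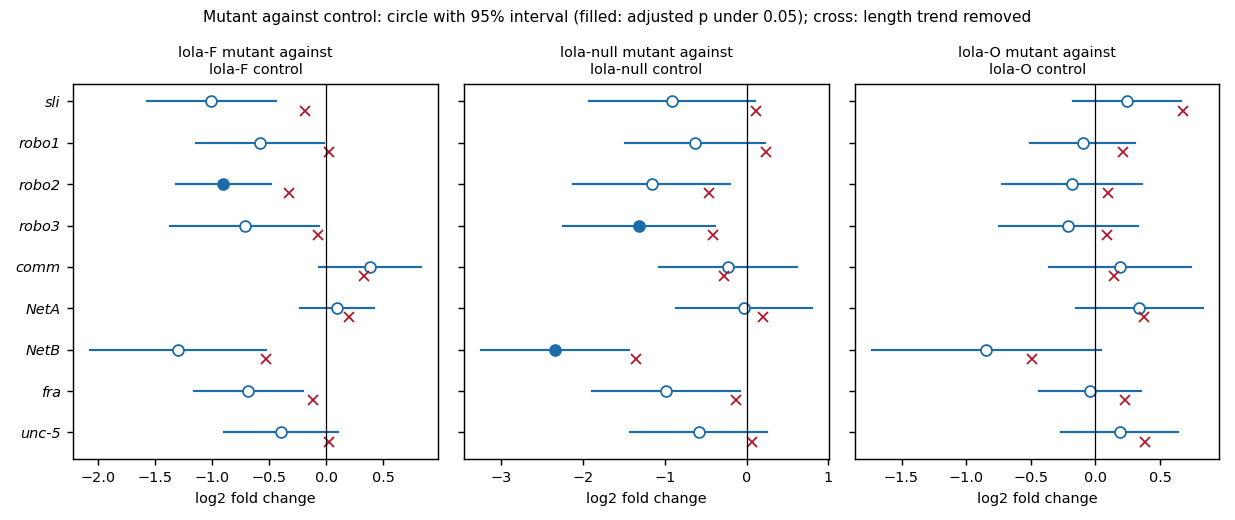
Log2 fold change of mutants against the controls of their set (circle, filled where the adjusted p is under 0.05) with its 95% interval (line), and the same value after correction of each library for its trend with length (cross), for the 9 members in the 3 sets. NetB of the lola-null set was the only called value that stayed called with the trend removed, at −1.36, while the crosses of robo1, fra and unc-5 lay within 0.24 of 0 in both embryo sets.

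Most members are long genes, and fold changes ran with length in these libraries. The median exonic length of the members was 6320 bases against 2068 for the genes tested in the lola-F set, and sli, robo1, robo2, robo3, NetB and fra belonged to the longest of 10 equal classes of genes by length in each set. In that class all genes together had a median of −0.74 in the lola-F set, with quartiles of −1.03 and −0.49, and of −0.99 in the lola-null set, with quartiles of −1.67 and −0.38. Of these 6 members 5 lay between these quartiles in either embryo set. NetB lay below them: 8.30% of the genes of that class had a lower value than NetB in the lola-F set and 9.78% in the lola-null set. In adults that class had a median of −0.33, with quartiles of −0.63 and −0.10. There robo2 and robo3 lay between the quartiles, NetB lay below them, and sli, robo1 and fra lay above them, robo1 only just. comm and NetA belonged to shorter classes, where the medians of all genes were 0.12 and −0.13 in the lola-F set.

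When each library was corrected for its length trend, most embryo values of the members moved towards 0. In the lola-F set sli was at −0.19, robo1 at 0.021, robo2 at −0.32 (adjusted p = 0.206), robo3 at −0.075, fra at −0.12, unc-5 at 0.025 and NetB at −0.53 (adjusted p = 0.141), and no member was called. In the lola-null set NetB was at −1.36 and kept its call (adjusted p = 0.0108, edgeR), while robo3 was at −0.41 (adjusted p = 0.605), robo2 at −0.46 and sli at 0.12. NetA stood at 0.20 in both embryo sets and at 0.38 in adults, and NetB in adults at −0.49, so that NetB stayed below NetA in each set. How much of the lower counts of the long members came from RNA length and how much from their expression was not tested.

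**Figure D4:**
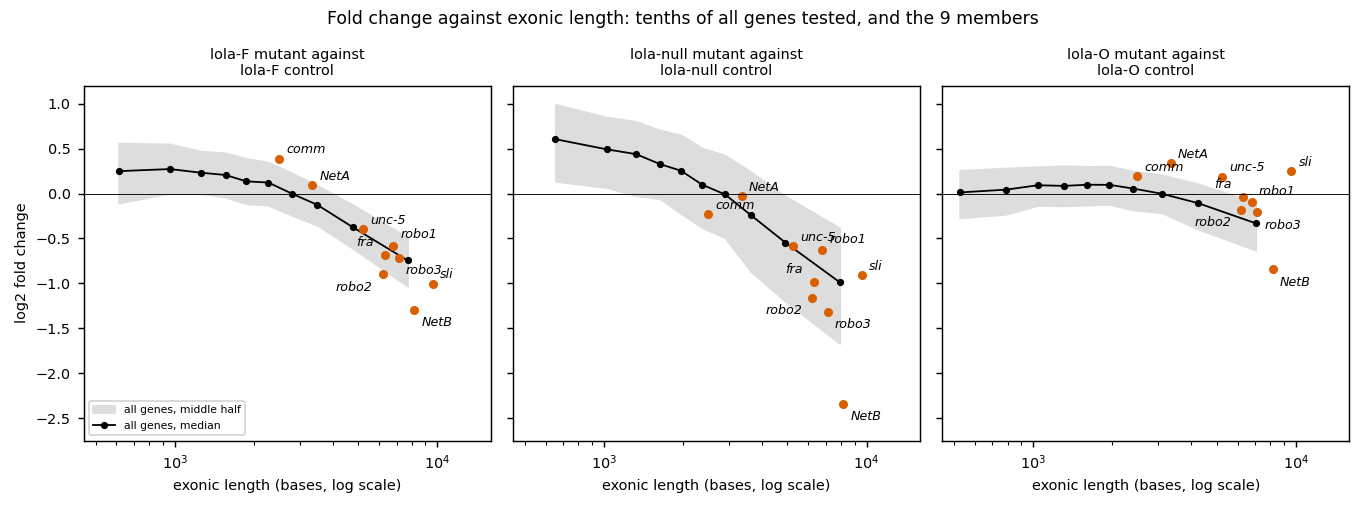
Log2 fold change against exonic length in bases (log axis) in each set, with the median (black line) and the quartiles (edges of the grey band) of all genes in 10 classes by length, and the 9 members in orange. Both embryo sets slope down to medians of −0.74 and −0.99 in the longest class, near the values of fra, and NetB lies below the band in all 3 sets.

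Whether the members responded differently in the libraries labelled lola-F mutant and lola-null mutant was tested as an interaction over the 10 embryo libraries, with the library labelled lola-null mutant 1, in which lola was at the control level, kept as a mutant. No member passed in edgeR, none had an unadjusted p under 0.05 and DESeq2 called none, where 8.59% of 10848 genes were called in either direction (749 higher and 183 lower, or 534 and 361 with upper quartile scaling). NetB had the largest difference among the members, −0.80 ± 0.56 in the direction of a lower value in the lola-null set, with an interval from −2.05 to 0.44 (adjusted p = 0.417, edgeR). Without lola-F control 3 it was −1.73 with a call (adjusted p = 0.0403). The other members lay between −0.39 (comm) and 0.37 (sli) at adjusted p of 0.516 or more, and the median over all genes was 0.31, or −0.0027 with upper quartile scaling, under which sli, robo1, robo2, NetA and unc-5 changed sign. The set and the allele cannot be told apart in this contrast.

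Genes that work with the members were counted next, on lists drawn up from known roles with earlier results of these data known. Of 11 genes for Slit and Robo cofactors and trafficking, 1 rose and 1 fell in the lola-F mutants, against 3.33% and 3.73% of all genes, and 5 fell in the lola-null mutants, against 9.49%. comm3, a relative of comm, rose 1.49-fold in lola-F mutants, from 35.5 ± 1.202 to 52.9 ± 2.28 CPM (SD, n = 3; adjusted p = 0.0423, edgeR). kuz, which encodes the ADAM protease that cleaves Robo, fell 2.15-fold there (31.6 ± 11.1 to 14.8 ± 2.58 CPM, adjusted p = 0.0488) and 10.55-fold in lola-null mutants (196.8 ± 9.59 to 18.5 ± 7.66 CPM, adjusted p = 3.83e-06). The heparan sulfate proteoglycan gene Sdc, whose product binds Slit, fell 5.57-fold in the lola-null mutants (adjusted p = 0.000181), and the glypican gene dally fell 3.48-fold (adjusted p = 0.00288). The list's median log2 fold change was −0.54 in the lola-F set, against 0.02 over all genes, and −1.08 in the lola-null set, against 0.09. The values of this list were not corrected for length, and the longest of the 10 length classes had medians of −0.74 and −0.99. How much of the list's lower values came with length was not tested.

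Of 21 genes of guidance signalling in the growth cone, 2 fell in the lola-F mutants (3.73% of all genes) and 6 in the lola-null mutants (9.49%), and none rose. The kinase gene Abl fell 2.16-fold and ena, which encodes an actin regulator bound by Robo, fell 1.82-fold in the lola-F mutants (adjusted p = 0.0436 and 0.0435, edgeR). Trim9, which encodes a ubiquitin ligase that acts with Frazzled, fell 6.83-fold in the lola-null mutants (45.9 ± 4.005 to 6.70 ± 0.03 CPM, adjusted p = 5.42e-05), and the Robo pathway GAP gene RhoGAP93B and the exchange factor gene Sos fell 3.16-fold and 3.06-fold. The median of this list was −0.44 and −0.99, again against 0.02 and 0.09 and without a correction for length. In adults no gene of either list was called.

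Markers of midline cells and neurons, which make several of these RNAs, were counted in the same way. Of 8 midline genes, S fell in the lola-F mutants, against 3.73% of all genes. In the lola-null mutants 5 fell, against 9.49%, with the smallest p for rho (9.85-fold), oc (8.06-fold) and S (3.63-fold), adjusted p = 5.96e-05, 0.000121 and 0.00191 in edgeR. There aos, tgo and wrapper were not called, at log2 fold changes of −0.37, 0.29 and −0.11. The summed midline level, with all libraries scaled together, was 173 to 196 CPM in lola-F mutants against 163 to 224 in controls, and 230 to 384 against 410 to 475 in the lola-null set. The largest part of the lola-null sums was tgo, at 239.6 ± 112.6 CPM in mutants and 195.9 ± 40.9 in controls (scaled within the set, SD, n = 2). These sums therefore say little about the called midline genes. Of 10 neuron genes, elav fell in the lola-F mutants and 8 fell in the lola-null mutants, again against 3.73% and 9.49% of all genes. The summed neuron level was 993 to 1475 CPM against 1606 to 2729 in the lola-F set and 246 to 412 against 928 to 942 in the lola-null set, without overlap, and no gene of these lists was at 0 in a whole group. Genes of other marker lists were called as well. Of 8 genes of cuticle-forming epidermis 5 rose in the lola-null mutants, against 7.42% of all genes. Among them were Ccp84Ae, which had no read in the controls, and TwdlM, from 2.15 ± 0.34 to 553.9 ± 4.13 CPM (SD, n = 2, adjusted p = 5.00e-10, edgeR). The summed level of the 8 genes was 1113 to 1175 CPM against 206 to 239 in controls. Of 6 heart genes tup and mid fell in these mutants, as did both tracheal genes, vvl and trh, against 9.49% of all genes. Of 7 muscle genes only Mlc2 rose and none fell. Of 9 glia genes Eaat1 rose and pnt fell. The other genes of these lists were not called. In the lola-F mutants ple fell, of 5 cuticle genes tested. Of 7 muscle genes Mlc2 and Act57B rose and bt and sls fell, against 3.33% of all genes higher and 3.73% lower. No glia, heart or tracheal gene was called there. None of the marker values was corrected for length. The part of these markers in the member values was not tested.

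Levels of the members across stages were compared among the 7 control libraries, which the 3 comparisons share, per kilobase of exon. In the lola-F controls the order was sli (16.9 ± 4.43 RPKM), NetA (13.1 ± 1.55), fra (9.87 ± 2.35), NetB (9.41 ± 4.58), robo1 (9.22 ± 2.00), unc-5 (6.53 ± 1.504), comm (6.39 ± 0.76), robo3 (5.43 ± 1.79) and robo2 (4.59 ± 1.13; SD, n = 3). The library ranges of every pair of neighbours in this order overlapped. In the lola-null controls it was sli (43.1 ± 3.28), fra (32.4 ± 2.12), comm (28.05 ± 5.96), robo2 (26.9 ± 5.85), NetA (22.9 ± 1.87), robo1 (15.5 ± 0.45), unc-5 (8.99 ± 0.24), NetB (6.80 ± 1.58) and robo3 (4.13 ± 0.99; SD, n = 2). There fra, comm, robo2 and NetA overlapped with their neighbours among these 4, and the other neighbours stood apart. In adult controls sli (8.55 ± 0.95), unc-5 (6.69 ± 1.73), fra (6.21 ± 0.56) and robo1 (5.90 ± 0.10) overlapped in turn, followed by comm (4.81 ± 0.78), NetA (3.09 ± 0.08), robo2 (2.87 ± 0.05), NetB (2.51 ± 0.71) and robo3 (1.28 ± 0.30), of which only robo2 and NetB overlapped. With the bases shared with lncRNA:CR44898 left out of its length, robo2 stood at 5.74, 33.7 and 3.59 RPKM in the lola-F, lola-null and adult controls, which moves its place in each order.

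Between the control sets of the embryos, labelled alike, 6 of 9 members were called higher in the lola-null controls, where 30.1% of 13238 genes were called higher and 27.8% lower. robo2 was 5.69-fold higher, comm 4.27-fold, fra 3.20-fold, sli 2.49-fold, NetA 1.71-fold and robo1 1.64-fold, at adjusted p from 7.32e-06 to 0.0139 in edgeR. The library ranges did not overlap for 7 of 9 members, these 6 and unc-5, and the share over all genes is not given here. robo3 (log2 difference −0.44, interval −1.10 to 0.21), NetB (−0.51, interval −1.32 to 0.31) and unc-5 (0.42, interval −0.11 to 0.95) were not called. robo1 did not pass without lola-F control 2 or lola-null control 2 (adjusted p = 0.0623 and 0.0731), nor NetA without lola-null control 2 (0.0538).

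The Robo make-up also differed between these controls. robo1 was the largest of the 3 in the lola-F controls, at 45.8% to 52.6% of their summed RPKM, with robo2 at 22.2% to 25.9% and robo3 at 25.2% to 30.2%. In the lola-null controls robo2 held 54.2% and 60.8% and robo3 held 8.15% and 9.44%. Adult controls were again led by robo1, at 57.0% and 60.4%. In the lola-null controls 6 of 8 midline genes were also higher than in lola-F controls, 6 of 10 neuron genes and 6 of 7 muscle genes were lower, and 1 neuron gene, elav, was higher. Over all genes tested, 30.1% were called higher and 27.8% lower. Of 9 glia genes 3 were higher and 5 lower, and of 6 heart genes 4 were higher and 1 lower. Set, stage and batch cannot be told apart in this comparison.

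Adult controls held lower levels of several members. Against the lola-F controls, sli, robo3, NetA and NetB were lower, 4 of 9 members, where 24.0% of genes were called lower and 39.9% higher (3182 and 5286, or 4339 and 4668 with upper quartile scaling). NetA was 3.82-fold lower, robo3 3.82-fold, NetB 3.35-fold and sli 1.78-fold, with adjusted p from 2.76e-05 to 0.0107 in edgeR. sli did not pass without lola-O control 1 (adjusted p = 0.0626), and upper quartile scaling called robo1, robo2 and fra lower as well. Against the lola-null controls 8 of 9 members were lower, where 29.6% of genes were called lower and 46.7% higher, from NetB (2.35-fold, adjusted p = 0.0181) and robo1 (2.31-fold) to NetA (6.53-fold) and robo2 (8.21-fold). NetB lost that call without lola-null control 1 or lola-O control 2 (adjusted p = 0.115 and 0.147). unc-5 was not called in any of the 3 comparisons of controls, with log2 differences between −0.25 and 0.42 (adjusted p = 0.405, 0.531 and 0.156).

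Genes with the pattern most like each member over the 14 libraries were found by Pearson correlation of log2 CPM among 10596 genes with a mean of 5 CPM or more. The libraries fall into 3 sets, which these correlations mostly follow. For NetB they were 2mit (r = 0.989) and scrt (0.983), a zinc finger gene of neurons. NetA was most like CG13001 (0.992) and sna (0.985), which encodes the transcription factor Snail. For sli they were CG43867 (0.977) and Nup153 (0.967), and for robo1 sli itself (0.964) and CG43867 (0.963). robo2 was most like Cad87A (0.986) and the Hedgehog receptor gene ptc (0.982), robo3 like Drl-2 (0.980), a Derailed family receptor gene, and tty (0.975). comm was most like Bgb (0.975) and crok (0.974), fra like Alh (0.983) and Eip63E (0.976), and unc-5 like mim (0.925) and app (0.904). Among the members themselves robo2 and fra had the highest correlation (0.971) and NetA and unc-5 the lowest (−0.155), with NetA and NetB at 0.361, all over the same 14 libraries.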

How the data were processed

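Each deposited file holds the gene counts of 1 library as whole numbers, made by the authors; the submitters' processing notes name STAR 2.5.0c, HTSeq 0.6.1p1 and BDGP6, and no source used here gives the strand setting. The 5 summary rows stayed out of library sizes and tests (6.32% to 66.7% of reads). Symbols, positions and exonic lengths came from BDGP6.54, which matched 17253 identifiers; lola was read under FBgn0005630 from general knowledge. Groups follow the labels, which do not say that replicates came from separate crosses, so the p-values cover the spread among these libraries, which may be technical.

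Mutants were compared with the controls of their set in R 4.3.3 with edgeR 4.0.16 (filterByExpr, TMM, quasi-likelihood F test, two-sided, Benjamini-Hochberg adjustment over all genes at 0.05). The embryo interaction and the controls were fitted likewise. The tests were checked on simulated counts, which held no length trend and no difference between sets, so the check does not cover these features. Alternatives were DESeq2 1.42.0 and its size factors, upper quartile scaling, no filter, a replicate block, removal of each library's lowess trend with length (span 0.3) and each library left out. Levels per kilobase used the union of exons with 14 libraries scaled together. The text names every member, lola, the called genes of each list that had the smallest p (at most 3), and the 2 genes most like each member. The members and lists were chosen with earlier results of these data known. Replicate pairs had chi-squares of 3.08 to 85.4 per degree of freedom, above sampling noise. The value of 3.08 belonged to lola-F mutants 1 and 2, and every other pair had 15.1 or more. These mutants were thus far more alike than other replicates, and the labels do not say whether they are independent samples. Values given with n = 3 for the lola-F mutants carry this limit. No sequence is printed, since none was at hand.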

Additional observations from a re-analysis of the deposited data

How the results depend on the processing

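Of the member calls, NetB in the lola-null set passed under all alternatives run; the robo2 and robo3 calls did not, as given above. Members called in the lola-F set (1) became 3 with upper quartile scaling, 4 in DESeq2 and 0 with the replicate block and with either length correction, and 0 to 1 with libraries left out. In the lola-null set (2) they became 1 with upper quartile scaling, DESeq2, the replicate block and either length correction. They became 4 with crossed pairs as a block (chosen after seeing the data). A library left out of this set leaves a single library in its group. In adults the block gave 1, and among adult and lola-F controls upper quartile scaling gave 7. All genes called moved from 719 in the lola-F set to 1382 (943 higher and 439 lower) with upper quartile scaling, as the median shifted from 0.02 to 0.17, and to 427 without a filter, 1877 in DESeq2, 0 with the block, 275 and 251 with the length corrections and 0 to 1150 with libraries left out; where edgeR called 0, between 2277 and 2874 genes had an unadjusted p under 0.05. The lola-null set (1570) gave 546 to 3112, and the adults (72) gave 117, 415, 326 and 669 with upper quartile scaling, no filter, DESeq2 and the block, and 5 to 227 with libraries left out. The interaction (932 genes, no member) gave 435 with the block, and 293 to 1569 genes and 0 to 1 members with libraries left out. The same-numbered libraries did not deviate together in the lola-F set (r = −0.0028, −0.190 and −0.112). In the lola-null set r was −0.342 for same-numbered and 0.342 for crossed libraries, and in adults 0.102 and −0.102. With only 2 libraries a group these values mirror each other by construction, so they cannot show whether libraries were paired.

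No called member changed direction. Values without a call that changed sign were, with the length trend removed by union of exons and by longest transcript, robo1 (0.021 and 0.082) and unc-5 (0.025 and 0.081) in the lola-F set; sli (0.12 and 0.17), robo1 (0.24 and 0.30), NetA (0.20 and 0.26) and unc-5 (0.060 and 0.13) in the lola-null set; and robo1 (0.21 and 0.24), robo2 (0.10 and 0.14), robo3 (0.092 and 0.063) and fra (0.23 and 0.27) in adults. lola turned to 0.68 and 0.72 by union of exons in the embryo sets, and in adults to −0.0080 with DESeq2 size factors and −0.0059 in DESeq2. The lengths of lola by union of exons and by longest transcript differ widely, giving 6.56 and 35.3 RPKM in lola-F mutant 1. Its length-corrected value therefore cannot be read as a rise of lola. Upper quartile scaling turned NetA in the lola-null set (0.041), fra in adults (0.0081) and unc-5 between adult and lola-F controls (−0.10). In the interaction, upper quartile scaling and no filter turned sli (−0.015 and −0.14), robo1 (−0.14 and −0.29), robo2 (−0.38 and −0.50), NetA (−0.19 and −0.38) and unc-5 (−0.28 and −0.42). DESeq2 size factors and DESeq2 turned robo2 (−0.061 and −0.070) and unc-5 (−0.010 and −0.015), the block robo2 (−0.21), and the length corrections robo2 (−0.024 and −0.025) and fra (0.072 and 0.082). With libraries left out, the interaction ranged from −0.67 to 0.96 for sli, −0.46 to 0.58 for robo1, −1.08 to 0.62 for robo2, −0.45 to 0.17 for NetA, −0.60 to 0.43 for unc-5 and −0.73 to 0.20 for fra. NetA in the lola-null set ranged from −0.14 to 0.053; in adults robo2 ranged from −0.47 to 0.055, unc-5 from −0.0077 to 0.38, comm from −0.049 to 0.42 and lola from −0.17 to 0.17; and unc-5 between adult and lola-F controls from −0.047 to 0.36. The interaction of adults with the lola-F set, added after seeing the data, called no member, and NetB there ranged from −0.21 to 0.80. Against the lola-null set it called none. Without lola-null mutant 1, which leaves a single lola-null mutant library, sli, robo2 and fra were at 2.04, 1.92 and 1.16. The cause of these changes was not tested. The most like gene of robo1 and of unc-5 changed with upper quartile scaling. With 2 or 3 libraries a group, a difference that missed the threshold is not shown to be absent.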
